A study of Mus musculus with 15 samples.

Results

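The Foxp1 CRISPR clones made by cutting exon 7 of Foxp1 were compared with those made by cutting exon 6. The comparison used 12 of the 15 RNA sequencing libraries of the series: 6 of exon 7 clones (3 each of E7.1 and E7.2) and 6 of exon 6 clones (3 each of E6.1 and E6.2), chosen by the edited exon that the labels give. The other 3 libraries were of the unedited A20 parental cells. A20 is a B-cell lymphoma line of BALB/c mice, and each clone was grown from a single sorted A20 cell after CRISPR/Cas9 editing and carried a frameshift with a premature stop codon. Replicates of a clone are separate passages, so each line is 1 clone and each exon is represented by 2 clones.

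Foxp1 is a forkhead transcription factor that B cells need during development and that represses many of its targets. It is abundant in poor-outcome diffuse large B-cell lymphoma, where shorter proteins that start at a downstream methionine are also made. The study placed its guides so that both the full-length and the shorter mouse proteins would be disrupted.

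The sequences of exons 6 and 7 are shown because the groups are defined by the exon that was cut. They were read in the sense direction from the GENCODE transcript ENSMUST00000113322.8, which has 19 exons and is 1 of 31 transcripts of the gene, on the reverse strand of GRCm38. The exons are numbered by their order in this transcript, which is taken to be the study's numbering and was not checked against a coordinate of the cuts. Capitals mark ATG codons in the reading frame of the protein.
Foxp1 exon 6, chr6:99016528-99016665, 138 bases: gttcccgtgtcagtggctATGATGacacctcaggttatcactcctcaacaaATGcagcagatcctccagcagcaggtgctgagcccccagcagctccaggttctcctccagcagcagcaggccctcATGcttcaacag
Foxp1 exon 7, chr6:99015424-99015510, 87 bases: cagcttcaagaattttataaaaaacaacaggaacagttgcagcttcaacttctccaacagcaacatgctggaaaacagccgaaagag
Exon 6 holds 4 in-frame ATG codons and exon 7 holds 0. The exons begin after 124 and 170 residues of the encoded protein, and lie in the glutamine-rich part of the protein. The exon 6 sequence is in 19 of the 31 transcripts and the exon 7 sequence, with both its ends, in 9, and the exons carry other numbers in other transcripts.

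Libraries held 26328054 to 39181530 counts in genes, and 3 counts, taken as the floor of detection, equalled 0.0751 to 0.118 CPM, the count scaled to a common library size. The median total was 31029673.5 in the E6 and 37310550 in the E7 libraries. Levels below are CPM after TMM normalization, and differences are log2 fold changes of the mean of both E7 clones over the mean of both E6 clones. The test was edgeR's quasi-likelihood test, adjusted by Benjamini and Hochberg over 13904 genes, and genes with an adjusted p under 0.05 are called. Some libraries stood apart. The third libraries of E6.2 and E7.2 lay at 74.0 and 67.0 on the second principal component (22.4% of the variance), the first library of E6.2 lay at -49.7 and the other 12 between -16.4 and 6.35. The first library of E6.2 also held 21444 CPM of mt-Rnr2, the mitochondrial large ribosomal RNA. B-cell markers summed to 4108 to 5190 CPM in the E7 and 3718 to 4472 CPM in the E6 libraries. T-cell, NK-cell, granulocyte, erythroid, fibroblast and epithelial markers, summed by type, reached at most 3.81 CPM in any of the 12 libraries. Of these, 1 NK-cell marker was called lower and 1 fibroblast marker higher in the E7 clones. The 5 macrophage markers summed to 10.9 to 32.4 CPM in the E7 and 4.96 to 13.4 CPM in the E6 libraries, with 0 of the 3 tested called and Lyz2 not above the floor.

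Foxp1 RNA itself separated the groups, and it was lower in the exon 7 clones. Foxp1 was 37.1 to 64.3 CPM (median 47.03) in the E7 libraries and 99.5 to 109 CPM (median 104) in the E6 libraries, and every E7 library lay below every E6 library. The means were 49.9 ± 12.3 CPM (SD, n = 6) and 105 ± 3.47 CPM (SD, n = 6), beside 138 ± 32.7 CPM (SD, n = 3) in A20 parental cells, whose libraries read 102, 166 and 147 CPM. The difference was -1.09 on the log2 scale (SE 0.14, adjusted p = 0.000609). The clones of an exon were close to each other: E6.1 and E6.2 averaged 104 and 106 CPM, and E7.1 and E7.2 averaged 56.8 and 43.0 CPM. Reads were counted over the whole gene, so these values are RNA levels and say nothing of which protein was made. Leaving out any 1 library gave -1.15 to -0.996, and leaving out a whole clone gave -1.29 to -0.87, with an adjusted p of at most 0.0113 in each. Those p values measure the spread between passages. With libraries summed by clone the difference was -1.04 and did not pass edgeR's quasi-likelihood test (adjusted p = 0.362).

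**Figure D1:**
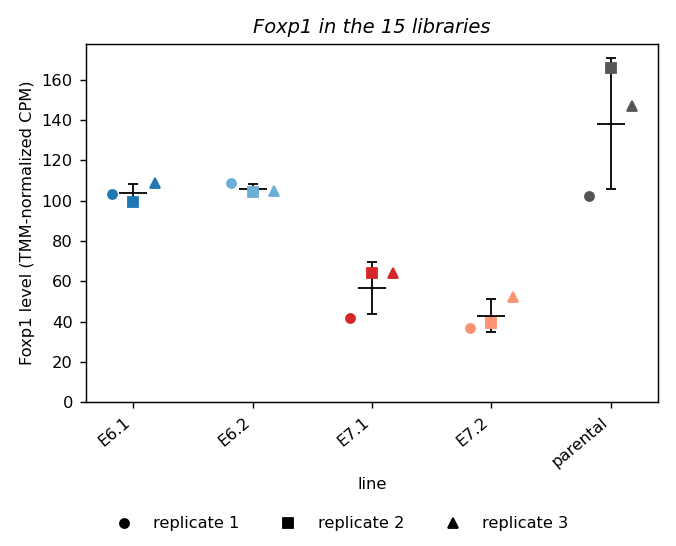
Foxp1 level (y axis, TMM-normalized CPM) in each library of the 5 lines (x axis), with marker shape for the replicate, a dash for the mean of 3 libraries and bars for 1 SD. The 6 E7 libraries sit between 37.1 and 64.3 CPM and the 6 E6 libraries between 99.5 and 109 CPM.

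Of the 13904 genes tested, 864 (6.21%) were higher and 813 (5.85%) lower in the E7 than in the E6 clones, 1677 (12.1%) in all. The median log2 fold change over all tested genes was -0.03. Most called differences were small: 224 genes were at least 2-fold higher and 226 at least 2-fold lower, while 1227 differed by less than 2-fold. A stricter reading kept the called genes whose 6 E7 libraries all lay on one side of all 6 E6 libraries, here called libraries apart, which were 220 higher (1.58%) and 207 lower (1.49%), 427 in all (3.07%). Called genes differed in base composition, with a median GC content of 51.8% in the higher, 46.7% in the lower and 49.3% in all tested genes. With an offset for GC content and length 975 genes were called higher and 633 lower, so that 60.6% of the calls were higher, against 51.5% without it. Of those 1608 calls, 1332 were among the 1677. All p values measure the spread between passages of a clone, with only 2 clones to an exon. With libraries summed by clone, 1 gene was called and 1754 had an unadjusted p under 0.05. An exact permutation test over 2 clones against 2 cannot go below a two-sided p of 0.333.

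The number of genes called depended on which clones were set against each other. E7.1 against E6.2 gave 2346 called genes (16.9%, with 8.22% higher and 8.65% lower) and E7.1 against E6.1 gave 450 (3.24%, with 1.58% higher and 1.65% lower). E7.2 against E6.2 gave 312 (2.24%, with 1.52% higher and 0.726% lower) and E7.2 against E6.1 gave 49 (0.352%, with 0.252% higher and 0.101% lower). Clones of the same exon also differed, by 173 genes (1.24%) between the E6 clones and by 82 genes (0.59%) between the E7 clones. Without E7.1, 135 genes were called in the exon comparison, without E6.2 691, without E6.1 1013 and without E7.2 2316. Without the third libraries of E6.2 and E7.2 the count was 4878, of which 1668 were among the 1677. Leaving out 1 library moved the count by over 1.5 times for 10 of the 12 libraries, all but the second libraries of E6.1 and E6.2. It was lowest without the first (468) or the third library of E6.1 (494) and highest without the third library of E6.2 (3802) or of E7.2 (2651). For each gene list below that held a called gene, likewise, the lowest count with 1 library left out came without the first or the third library of E6.1, alone or tied, and the highest without the third library of E6.2 or of E7.2. The totals over all tested genes moved in the same fits. A list's count with libraries or a clone left out is therefore to be read beside the total of that fit. Of the 1677 genes, 1566 had the same sign in all 4 pairs of an E7 with an E6 clone. Adgrl2, Sept8, Cd36, Gpd1l, AB124611 and Aldoart2 were called higher in all 4 pairs, and Foxp1 was the gene called lower in all 4.

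**Figure D2:**
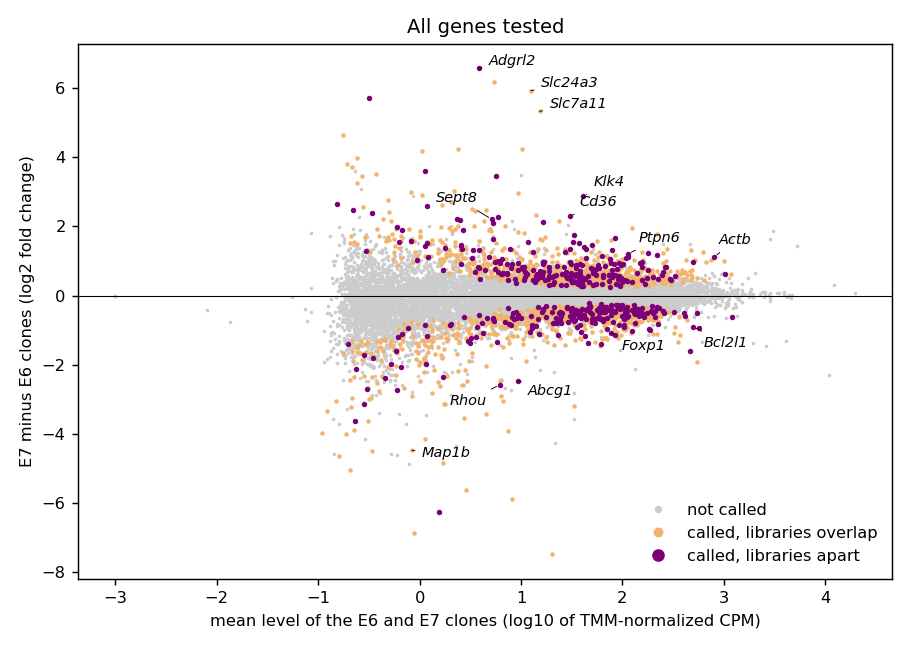
Each point is 1 of 13904 genes, with its mean level in the E6 and E7 clones on the x axis (log10 of CPM) and the difference between E7 and E6 clones on the y axis (log2 fold change), coloured by whether it was called and whether the libraries of the exons were apart. Called genes lie on both sides of 0, 864 above and 813 below, and most within a log2 fold change of 1.

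The 12 largest differences in each direction were taken from the 427 called genes with libraries apart (3.07% of those tested). Separate groups for these genes follow from that choice and are no further result. Several of those higher in the E7 clones were surface proteins. Adgrl2, an adhesion G protein-coupled receptor of the latrophilin family, was 4.23 to 9.83 CPM (median 6.98) in the E7 libraries. It was 0.98 to 2.19 CPM in E6.1 and had 0 counts in all 3 libraries of E6.2, so no E6 library reached the lowest E7 library. Its mean in the E7 clones was 9.74 times that of the E6 clones and at least 58.8-fold higher than the 3-count floor per library of E6.2, and its fitted value (log2 fold change 6.58, SE 0.40, adjusted p = 2.90e-06) depends on the prior count. Cd36, a scavenger receptor that takes up long-chain fatty acids and oxidized lipoproteins, was 25.2 to 73.1 CPM (median 48.5) in the E7 and 4.87 to 15.6 CPM (median 11.5) in the E6 libraries (log2 fold change 2.29, SE 0.24, adjusted p = 0.000116). Cd36 stayed called with any 1 clone left out (adjusted p of at most 0.00663). Tnfsf9, which encodes the costimulatory ligand 4-1BBL, was 2.08 to 7.98 CPM (median 3.17) against 0.512 to 1.29 CPM (median 0.734) (log2 fold change 2.22, SE 0.32, adjusted p = 0.00155). With 1 clone left out the adjusted p for Tnfsf9 reached 0.0702.

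Other genes at the top of the higher list encode secreted, cytoskeletal and nuclear proteins. Klk4, a secreted serine protease of the kallikrein family, was 50.4 to 79.6 CPM (median 69.1) in the E7 and 2.21 to 30.2 CPM (median 13.99) in the E6 libraries (log2 fold change 2.88, SE 0.31, adjusted p = 0.000151). The E6 clones differed from each other here, averaging 25.7 CPM (E6.1) and 3.31 CPM (E6.2), both below the lowest E7 library. Sept8, a septin of the filament-forming GTPase family, was 7.95 to 8.87 CPM (median 8.23) against 0.926 to 3.64 CPM (median 1.697) (log2 fold change 2.20, SE 0.18, adjusted p = 1.14e-05), and the E7 libraries were nearly equal to each other. Psrc1, a spindle protein of mitotic cells, was 5.28 to 15.2 CPM (median 8.87) against 0.847 to 4.74 CPM (median 2.19) (log2 fold change 2.27, SE 0.23, adjusted p = 0.000105). Rhox5, a homeobox gene of the X-linked reproductive cluster, was 10.6 to 50.6 CPM (median 24.4) against 2.87 to 8.68 CPM (median 5.21) (log2 fold change 2.12, SE 0.15, adjusted p = 2.84e-06). That none of these groups overlapped was a condition of the choice. The remaining 5 of the 12 largest were Kank4os (3.45), an antisense transcript, AB124611 (3.60), Myof (2.61), a membrane-repair ferlin, Derl3 (2.17), which acts in ER-associated degradation, and Sh3pxd2a (2.09), a podosome scaffold.

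Genes lower in the E7 clones included 3 of sterol and vitamin D metabolism. Abcg1, a transporter that exports cholesterol from cells, was 1.604 to 4.097 CPM (median 2.85) in the E7 and 9.09 to 20.7 CPM (median 17.8) in the E6 libraries (log2 fold change -2.47, SE 0.41, adjusted p = 0.00376). Nr1h3, which encodes the oxysterol receptor LXR alpha, was 0.298 to 0.738 CPM (median 0.414) against 0.8504 to 3.02 CPM (median 1.62) (log2 fold change -1.97, SE 0.26, adjusted p = 0.000783). Cyp27b1, the enzyme that makes active vitamin D, was 0.358 to 0.738 CPM (median 0.491) against 0.916 to 6.69 CPM (median 2.18) (log2 fold change -2.35, SE 0.43, adjusted p = 0.00657). Nr1h3 and Cyp27b1 were under 1 CPM in every E7 library. With 1 clone left out the adjusted p reached 0.0589 for Abcg1, 0.0805 for Nr1h3 and 0.121 for Cyp27b1, so none of the 3 held its call in every such fit. Abca1, the other main cholesterol exporter, was 77.3 to 191 CPM (median 124) against 74.1 to 461 CPM (median 273) (log2 fold change -1.10, SE 0.36, adjusted p = 0.0607) and did not pass the test.

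Rhou, an atypical small GTPase, was 0.509 to 1.43 CPM (median 1.15) in the E7 and 2.03 to 25.9 CPM (median 9.57) in the E6 libraries (log2 fold change -2.58, SE 0.22, adjusted p = 1.48e-05). It was far from equal in the E6 clones, averaging 2.15 CPM (E6.1) and 20.4 CPM (E6.2). Treml2, a receptor of the TREM family on B and myeloid cells, was 13.6 to 37.4 CPM (median 26.9) against 40.98 to 80.95 CPM (median 67.3) (log2 fold change -1.38, SE 0.24, adjusted p = 0.00512). Miox, an inositol-degrading oxygenase, had the largest fitted fall of the 12 chosen lower genes (log2 fold change -2.74, SE 0.54, adjusted p = 0.00913), at 0.0792 to 0.192 CPM (median 0.113) against 0.294 to 3.31 CPM (median 0.575), which is near the floor of detection in the E7 libraries. Called genes outside that choice, such as Map1b (-4.48), fell further. The other 6 of the 12 largest, all with libraries apart, were ENSMUSG00000097188 (-1.62), a gene with no symbol at 118 to 434 CPM against 453 to 884 CPM, Fkbp7 (-1.31), an ER prolyl isomerase, Rpgrip1 (-1.22), a ciliary protein, Cdnf (-1.21), an ER-resident neurotrophic factor, and the noncoding genes Taco1os (-1.17) and Snora43 (-1.17). Each of the 12 lost its call in at least 1 fit with a clone left out, with a highest adjusted p of 0.0589 (Abcg1) to 0.328 (Cdnf).

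For the genes with the largest differences, the place of the parental mean differed by direction. Of the 12 largest higher genes, 7 had a parental mean inside the range of the E7 libraries: Adgrl2 (4.48 CPM), Cd36 (36.6), Rhox5 (43.9), Kank4os (7.91), Psrc1 (8.13), AB124611 (2.3002) and Myof (1.09). Of the 12 largest lower genes, 0 had a parental mean inside the E7 range and 12 had it inside the range of the E6 libraries. For Foxp1 the arrangement differed, with the parental mean above both groups. Over the 220 higher genes with libraries apart, all 3 parental libraries lay past the midpoint of the group means toward E7 for 27 genes (12.3%) and none did for 50 (22.7%). Over the 207 lower genes these numbers were 8 (3.86%) and 58 (28%). The most frequent arrangement was the same in both directions. Only parental replicate 1 lay on the E7 side, for 112 of the higher (50.9%) and 111 of the lower genes (53.6%). Of the E6 libraries, the second of E6.1 lay past that midpoint most often, for 73 of the 220 higher genes (33.2%) and 48 of the 207 lower genes (23.2%).

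**Figure D3:**
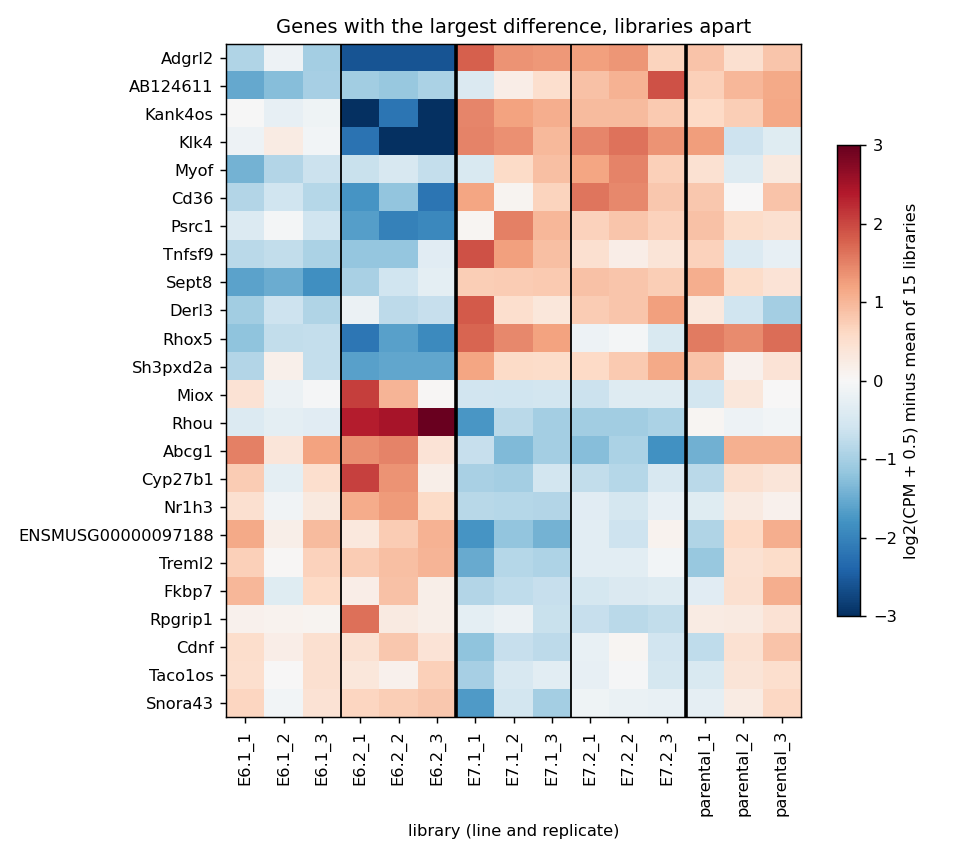
Heat map of the 12 genes with the largest difference in each direction among called genes with libraries apart (rows), in the 15 libraries (columns), coloured by log2(CPM + 0.5) minus the mean of the 15 libraries. By the choice of genes, every E7 column is above every E6 column in the upper 12 rows and below it in the lower 12. The parental columns are red for Adgrl2, Kank4os and Rhox5.

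The 5 most abundant genes with libraries apart were taken in each direction. Of those higher in the E7 clones, Actb, cytoplasmic actin, was 876 to 1627 CPM (median 1008) against 349 to 803 CPM (median 416) (log2 fold change 1.11, SE 0.27, adjusted p = 0.0217), and Tmsb4x, the actin-binding peptide thymosin beta 4, was 499.97 to 1144 CPM (median 578) against 268 to 426 CPM (median 332) (log2 fold change 0.97, SE 0.20, adjusted p = 0.01096). Ptma (0.63), a nuclear acidic protein, Got2 (0.58), the mitochondrial aspartate aminotransferase, and Mlec (0.46), an ER lectin, were also higher. Of the abundant genes that were lower, Bcl2l1, which encodes the antiapoptotic Bcl-xL, was 274 to 433 CPM (median 340.3) against 481 to 794 CPM (median 665) (log2 fold change -0.90, SE 0.18, adjusted p = 0.008699). Il9r, the interleukin 9 receptor, was 269.6 to 508 CPM (median 406) against 550.4 to 940.4 CPM (median 744) (log2 fold change -0.93, SE 0.19, adjusted p = 0.01199). That no E7 library reached the lowest E6 library for either gene follows from the choice of genes with libraries apart. With 1 clone left out the adjusted p reached 0.295 for Actb, 0.115 for Tmsb4x, 0.286 for Bcl2l1 and 0.329 for Il9r. Serp1 (-0.61), an ER stress-associated membrane protein, and Slc38a2 (-0.50), a neutral amino acid transporter, completed the 5 most abundant together with ENSMUSG00000097188. Serp1 did not pass the test with the offset for GC content and length (-0.47, adjusted p = 0.071).

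Genes of B-cell identity and receptor signalling were higher in the E7 clones more often than lower: 12 of 41 tested were higher and 2 lower (34.1% called, beside 12.1% of all genes), with a median log2 fold change of 0.28 beside -0.03 over all genes. Cd79a, the signalling chain Ig alpha of the B-cell receptor, was 121 to 229 CPM (median 129) against 51.6 to 91.3 CPM (median 70.2) (log2 fold change 1.08, SE 0.17, adjusted p = 0.003697). Ptpn6, the phosphatase SHP-1 that damps receptor signals, was 137 to 198 CPM (median 156) against 55.9 to 105 CPM (median 63.5) (log2 fold change 1.20, SE 0.19, adjusted p = 0.00334). Inpp5d, the lipid phosphatase SHIP1, another brake on the receptor, was 106 to 155 CPM (median 124) against 52.1 to 92.2 CPM (median 68.4) (log2 fold change 0.88, SE 0.14, adjusted p = 0.00362). Pou2f2, the octamer factor Oct-2, was 51.3 to 80.6 CPM (median 54.5) against 17.95 to 40.6 CPM (median 21.1) (log2 fold change 1.35, SE 0.26, adjusted p = 0.00781). The groups were separate for all 4, which thus include both a chain of the receptor and inhibitors of it. The 2 lower members were Blnk, a receptor adaptor, and Bach2, a repressor that delays plasma cell differentiation. Bach2 was 26.6 to 54.2 CPM (median 42.7) in the E7 and 45.9 to 121 CPM (median 107) in the E6 libraries (log2 fold change -1.26, SE 0.26, adjusted p = 0.0109), and the groups overlapped through the third library of E6.2 alone. The number of members called was 2 without E7.1, 7 without E6.1 or without E6.2, 14 without E7.2 and 27 without the third libraries of E6.2 and E7.2, and with 1 library left out it was 7 to 20. In bulk RNA, fewer cells that express a gene and less of its RNA per cell cannot be told apart.

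Of 19 regulators of the germinal centre and plasma cell programme 7 were higher, 2 were lower and 10 did not pass the test (47.4% called), with a median of 0.34. Tnfrsf13c, the survival receptor for BAFF, was 33.5 to 55.2 CPM (median 34.3) against 12.01 to 22.3 CPM (median 15.7) (log2 fold change 1.25, SE 0.14, adjusted p = 0.000212), with no overlap. Irf4, a factor of plasma cell differentiation, was 30.3 to 77.6 CPM (median 44.6) against 9.86 to 42.6 CPM (median 23.002) (log2 fold change 1.02, SE 0.18, adjusted p = 0.00472), with overlap and a mean of 34.2 CPM for E6.1 and of 14.2 CPM for E6.2. Further higher members, named after their values were seen, included Id3 (1.89), Sdc1 (1.46), Prdm1 (1.33) and Bcl6 (0.52). Prdm1 and Sdc1 are genes of the plasma cell, and Bcl6 is a factor of the germinal centre. Batf, a partner of Irf4, was 40.2 to 72.04 CPM (median 54.1) against 68.2 to 119.8 CPM (median 95.2) (log2 fold change -0.79, SE 0.17, adjusted p = 0.0149), with overlapping libraries, and was lower with Bach2. Without E6.2, 2 members were called, without E7.1 4, without the third libraries of E6.2 and E7.2 13, and with 1 library left out 4 to 10.

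The study followed MHC class II as protein on the cell surface and reports it raised in all of the clones over parental cells. RNA of E7 against E6 clones, given here, is another measure and another comparison. In antigen presentation on MHC class II, 1 of 21 members tested was called (4.76%), and the median was 0.12. That gene was H2-DMb2, a subunit of the chaperone that loads peptide onto class II, at 57.5 to 85.3 CPM (median 67.8) against 25.4 to 56.3 CPM (median 41.8) (log2 fold change 0.76, SE 0.14, adjusted p = 0.00654), with no overlap. The class II alpha chain H2-Aa was 721 to 1194 CPM (median 833) against 566 to 1241 CPM (median 684) (log2 fold change 0.22, SE 0.19, adjusted p = 0.454), the beta chain H2-Ab1 342 to 401 CPM (median 373) against 202 to 465 CPM (median 287) (log2 fold change 0.28, SE 0.16, adjusted p = 0.262), and the transactivator Ciita 38.3 to 74.7 CPM (median 71.1) against 60.1 to 80.3 CPM (median 76.7) (log2 fold change -0.16, SE 0.14, adjusted p = 0.452). These 3, named after their values were seen, overlapped between groups and did not pass the test. Without the third libraries of E6.2 and E7.2, 9 of the 21 were called, and with 1 library left out 1 to 8. In MHC class I presentation 5 of 22 were higher and 1 lower (27.3% called, median 0.20). Without E7.1, where 135 of all genes were called, 0 of these were, and with 1 library left out 1 to 13. The immunoproteasome subunits Psmb9 (0.70) and Psmb10 (0.60) and the ER oxidoreductase Pdia3 (0.98) were higher. Tapbpl, a peptide editor, was 14.3 to 17.1 CPM (median 15.5) against 17.4 to 37.9 CPM (median 26.8) and lower (log2 fold change -0.81, SE 0.19, adjusted p = 0.0192).

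Surface ligands and receptors through which B cells meet other cells went in both directions. Of 19 costimulatory and checkpoint ligands 4 were higher and 3 lower (36.8% called, median -0.04). Besides Tnfsf9, Cd52 (0.74), a small lipid-anchored glycoprotein, was higher with libraries apart. Cd200 (0.81), an inhibitory ligand, was higher with overlap. Fas, the death receptor, was 32.6 to 46.5 CPM (median 38.3) against 46.7 to 89.04 CPM (median 65.4) and lower without overlap (log2 fold change -0.80, SE 0.18, adjusted p = 0.0145). Of 30 cytokine receptor and signalling genes 4 were higher and 2 lower (20%, median 0.11). Il2rg, the common gamma chain, had a called difference (log2 fold change 2.34, SE 0.19, adjusted p = 1.14e-05) that lay in 1 clone: its libraries read 39.4 to 48.4 CPM in E7.1 and 4.01 to 5.26 CPM in E7.2, beside 1.02 to 5.30 CPM in the E6 clones. Ebi3 (0.77), a subunit of interleukin 27, was higher and Il10rb (-0.61), a chain of the interleukin 10 receptor, lower, both with overlap. Without E7.1, 1 ligand and 0 cytokine genes were called, and with 1 library left out 3 to 8 ligands and 2 to 12 cytokine genes.

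Receptors and integrins of homing divided likewise, with 5 of 31 higher and 3 lower (25.8%, median -0.06). Cxcr5, the chemokine receptor that brings B cells into follicles, was 35.05 to 51.99 CPM (median 42.7) against 9.72 to 23.5 CPM (median 16.6) (log2 fold change 1.36, SE 0.21, adjusted p = 0.00337), with no overlap. S1pr1, the receptor through which lymphocytes leave tissue, was 12.5 to 61.9 CPM (median 18.4) against 35.3 to 88.98 CPM (median 48.5) and lower (log2 fold change -1.22, SE 0.29, adjusted p = 0.0194), with overlap, and its highest values in both groups were in the third libraries of E6.2 and E7.2. The integrin chains Itgb3 (1.01) and Itgal (0.54) were higher with overlap. Without E7.1 2 members were called, and with 1 library left out 3 to 11.

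**Figure D4:**
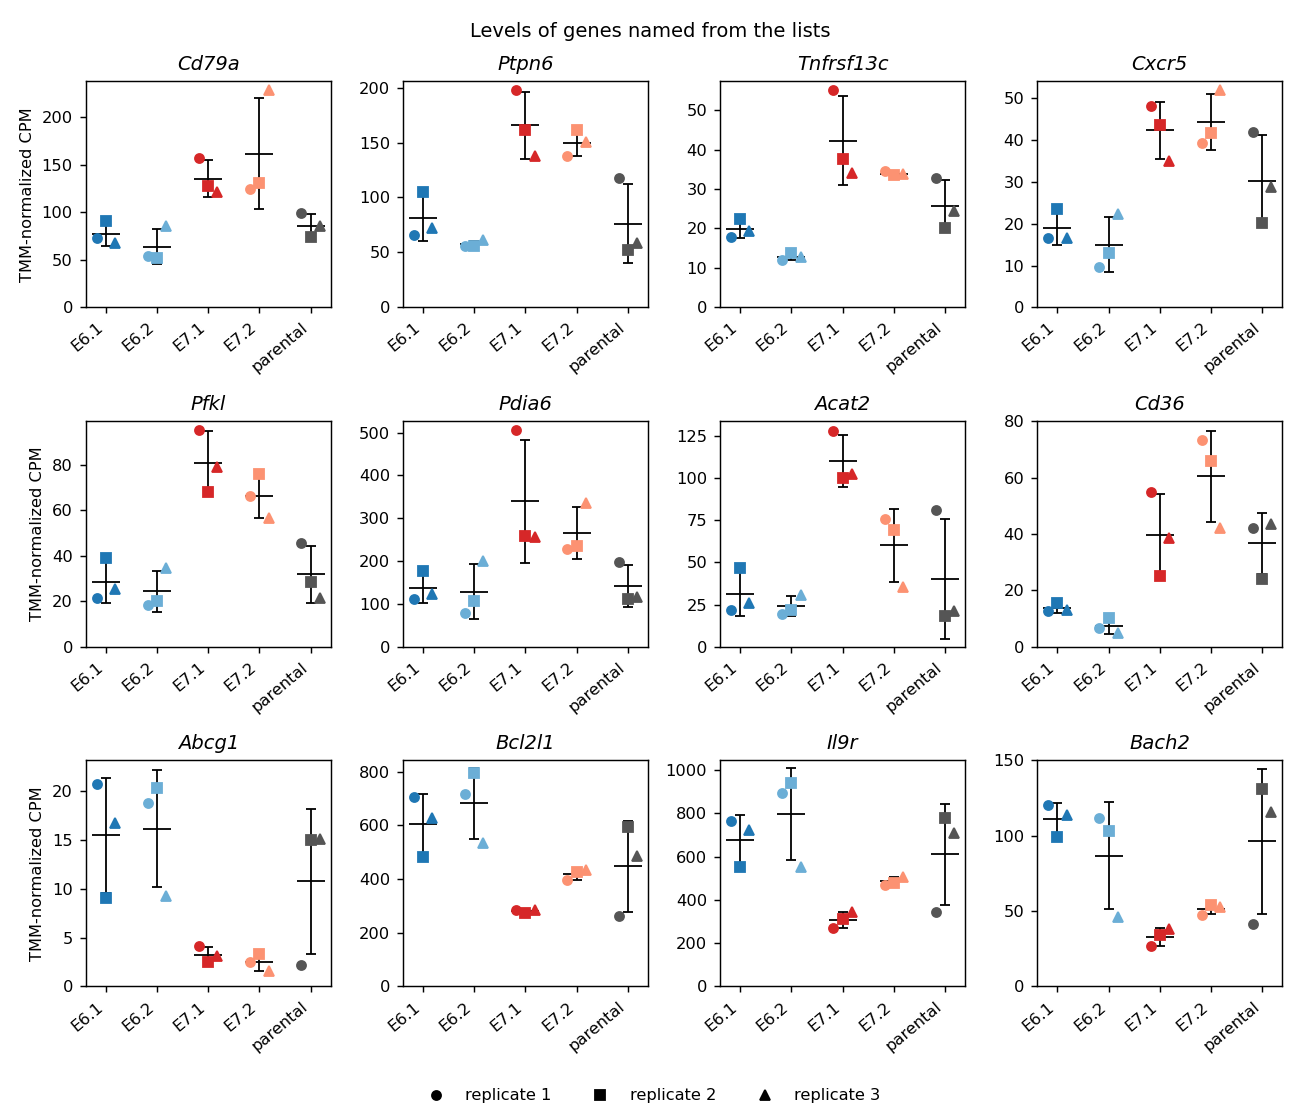
Levels (y axes, TMM-normalized CPM) of 12 genes named from the lists in each library of the 5 lines (x axes), with marker shape for the replicate, a dash for the mean of 3 libraries and bars for 1 SD. Cd79a, Ptpn6, Tnfrsf13c, Cxcr5, Pfkl, Pdia6 and Cd36 are higher in all 6 E7 than in all 6 E6 libraries, Abcg1, Bcl2l1 and Il9r lower, while Acat2 and Bach2 overlap.

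Sterol metabolism had the highest share of called members of the lists examined. Of 31 genes of cholesterol synthesis and uptake 17 were higher and 2 lower in the E7 clones (61.3% called), with a median of 0.69. Acat2, the thiolase at the start of the pathway, was 35.2 to 128 CPM (median 87.7) against 19.4 to 46.5 CPM (median 23.9) (log2 fold change 1.57, SE 0.35, adjusted p = 0.0146). In every one of the 17 the groups overlapped. The 2 lower members act in efflux and storage: Abcg1, described above, and the cholesterol esterifying enzyme Soat1 (log2 fold change -0.58, SE 0.11, adjusted p = 0.00621). Over the list, the median of log2 level minus the gene's mean was 0.55 to 0.89 in E7.1, 0.39, 0.35 and -0.20 in E7.2, -0.52 to 0.12 in E6.1 and -0.65 to -0.15 in E6.2, and 0.44 in parental replicate 1 beside -0.48 and -0.54 in the other parental libraries. The count of called members was 0 without E7.1, 1 without E6.2, 10 without E6.1 and 21 without E7.2. With 1 library left out it was 3 to 25, and without the third libraries of E6.2 and E7.2 28.

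Genes of glycolysis were higher in 11 of 26 and lower in 0 (42.3%, median 0.40). Pfkl, the liver form of phosphofructokinase and a control point of the pathway, was 56.9 to 95.5 CPM (median 72.1) against 18.5 to 39.3 CPM (median 23.4) (log2 fold change 1.47, SE 0.22, adjusted p = 0.00202). Tpi1, triosephosphate isomerase, was 189.8 to 354 CPM (median 239.6) against 72.04 to 141 CPM (median 99.7) (log2 fold change 1.25, SE 0.21, adjusted p = 0.00482), and both genes separated the groups. Ldha (1.33), lactate dehydrogenase, and Hk1 (0.82), hexokinase, were higher with overlap. The count was 4 without E6.1 or without E7.1, 8 without E6.2, 20 without the third libraries of E6.2 and E7.2, and 7 to 18 with 1 library left out. Of 19 hypoxia-inducible genes 6 were higher and 1 lower (36.8%, median 0.16), among them Pgm1 (0.79), which links glycogen to glycolysis, Bnip3 (0.83), a mitophagy receptor, Pdk1 (0.48), which holds back pyruvate oxidation, and Ankrd37 (1.17). Without E6.1 1 of these was called, and with 1 library left out 3 to 10.

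Fatty acid genes had 8 of 34 higher and 0 lower (23.5%, median 0.26). Scd1, the desaturase that makes oleate, was 88.4 to 569 CPM (median 329) against 51.7 to 213 CPM (median 78.2) (log2 fold change 1.79, SE 0.38, adjusted p = 0.0129), and Fasn (0.76), fatty acid synthase, and Acly (0.70), which supplies cytosolic acetyl-CoA, were higher too, all with overlap. Cd36 was the member with libraries apart. Without E6.2 1 member was called, without E7.1 2, without the third libraries of E6.2 and E7.2 22, and with 1 library left out 3 to 18. Oxidative phosphorylation subunits were higher in 11 of 76 and lower in 0 (14.5%, median 0.15), a share close to the 12.1% of all genes. Ndufv3, a complex I subunit, was 34.4 to 45.3 CPM (median 42.5) against 20.6 to 32.9 CPM (median 27.4) (log2 fold change 0.56, SE 0.13, adjusted p = 0.0201) with no overlap, and Ndufa1 (0.51), Sdha (0.38) and Uqcr11 (0.84), of complexes I, II and III, were higher with overlap. Without E7.1 and without E6.2 0 of these were called, and with 1 library left out 1 to 30. Of 15 mitochondrially encoded transcripts, 0 were called, with 0 at an unadjusted p under 0.05 in edgeR and 0 called by DESeq2. The 74 cytosolic ribosomal protein genes had 0 called in edgeR, with 1 at an unadjusted p under 0.05 and 1 called by DESeq2.

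Chaperones and folding enzymes of the endoplasmic reticulum (ER) were higher in 10 of 29 and lower in 3 (44.8%, median 0.33). Pdia6, a disulfide isomerase, was 228 to 506 CPM (median 257) against 78.5 to 201 CPM (median 118) (log2 fold change 1.17, SE 0.26, adjusted p = 0.0146), and Sdf2l1, a cochaperone of BiP, was 37.3 to 80.1 CPM (median 41.2) against 8.897 to 28.4 CPM (median 15.3) (log2 fold change 1.55, SE 0.28, adjusted p = 0.00633). Manf (0.90), a secreted ER stress factor, and Derl3, given above, were likewise higher with libraries apart. The lower members, named after their values were seen, were the stress sensors Atf6 (-0.45) and Ern1 (-1.10) and the retrotranslocation protein Derl1 (-0.47). The list's highest library medians were those of the first library of E7.1 and the third of E7.2, and 1 member was called without E7.1. Without E6.1 the count was 3, without E6.2 4, without the third libraries of E6.2 and E7.2 19, and with 1 library left out 3 to 17. In the Atf4 stress response 1 of 28 was higher and 3 were lower (14.3%, median -0.25). Ppp1r15a (-1.26), Trib3 (-1.13) and Wars (-0.78) were lower with overlap, Wars not with the replicate block (adjusted p = 0.0538), and 2 to 7 members were called with 1 library left out. The gene called higher, Slc7a11, the cystine transporter, had 0 counts in all libraries of E6.2 but 27.2 to 38.002 CPM in E6.1, beside 3.69 to 20.8 CPM in the E7 clones. Its E7 and E6 means were 13.99 and 16.5 CPM, and its fitted 5.33 depends on the prior count and was -1.21 without E6.2.

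The count of called cell cycle genes depended on a single library. Of 51 tested, 4 were called, 3 higher and 1 lower (7.84%), although the median was 0.30 and 44 of the 51 had a positive value. The list's library median was -1.32 in the third library of E7.2, and without that library 34 members were called. Ccnd3, a D-type cyclin of lymphoid cells, was 92.8 to 162 CPM (median 132) against 32.6 to 59.4 CPM (median 36.4) (log2 fold change 1.67, SE 0.25, adjusted p = 0.00238), with no overlap. Ccne1 (1.29), the cyclin of S-phase entry, and Cdkn2d (0.91), a Cdk4 inhibitor, were higher, and Cdkn1b (-0.79), the inhibitor p27, was lower, all 3 with overlap. Of 34 apoptosis regulators 1 was higher, the BH3 protein Bid (0.59), and 2 were lower, Bcl2l1 and Fas (8.82%, median 0.15), with 3 to 9 called with 1 library left out. In the ribosomal list the third library of E7.2 had a median of 1.19, beside 0.81 in the third library of E6.2.

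**Figure D5:**
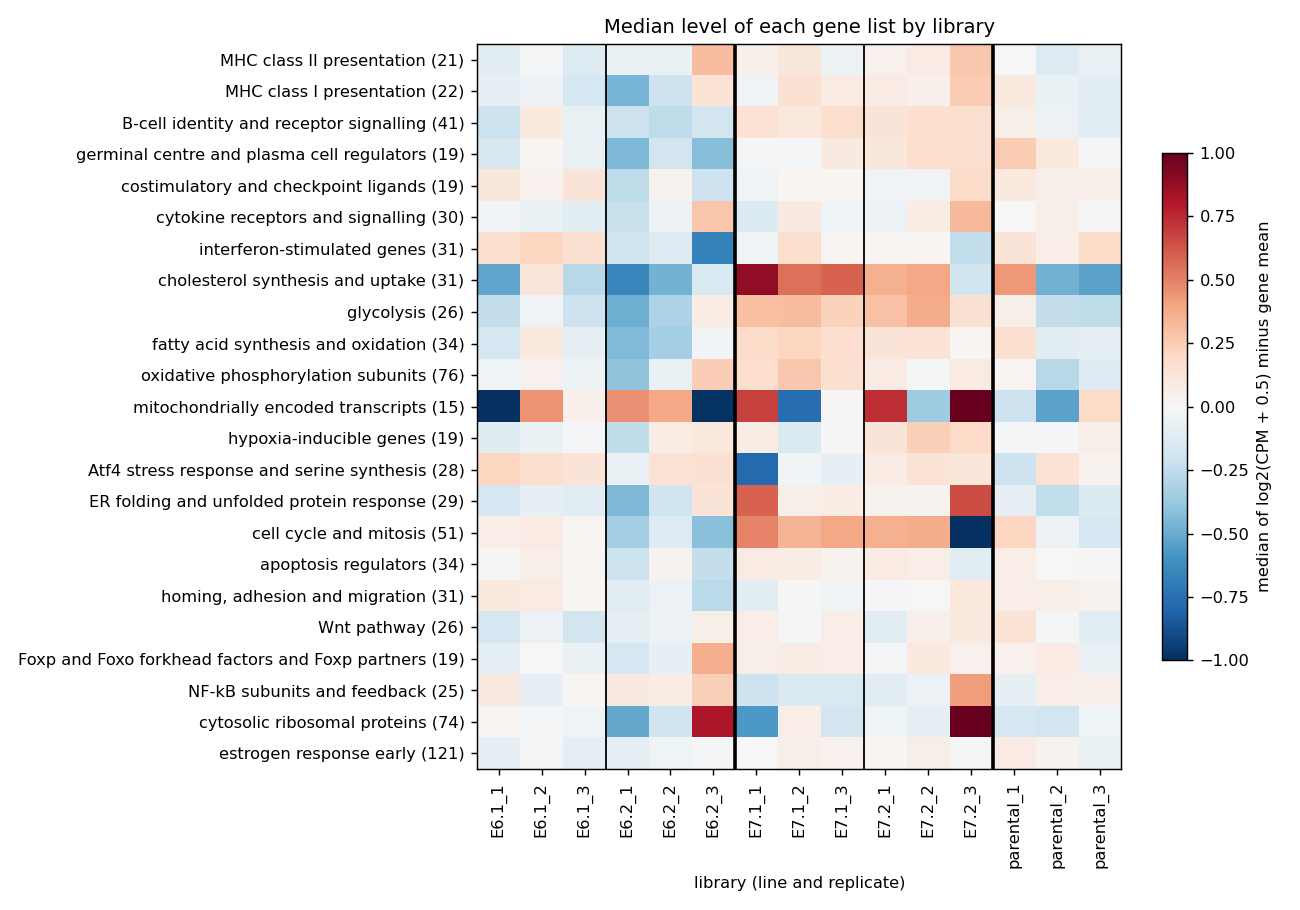
Median over each gene list (rows, number of tested genes in brackets) of log2(CPM + 0.5) minus the gene's mean over the 15 libraries, for each library (columns). Cholesterol and glycolysis rows are red in the E7.1 columns and blue in most E6 columns, and the third library of E7.2 stands out in the cell cycle row (-1.32) and the ribosomal protein row (1.19).

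In the Foxp and Foxo, Wnt, NF-kB and interferon lists 7.69% to 16.1% of members were called, beside 12.1% of all genes. Of 19 Foxp and Foxo factors and Foxp partners, Foxp1 and the NuRD component Gatad2b (-0.68) were lower and the deacetylase Hdac2 (0.43) was higher (15.8%, median 0.11). Of 26 Wnt pathway genes 2 were higher (7.69%, median 0.10): Lef1, a nuclear mediator of Wnt signals, was 5.302 to 8.92 CPM (median 6.47) against 1.504 to 4.05 CPM (median 3.22) (log2 fold change 1.12, SE 0.26, adjusted p = 0.0182) with no overlap, and Daam1 (0.83), a formin, was higher with overlap. Of 25 NF-kB subunits and feedback genes 3 were lower (12%, median -0.08), namely the kinase Chuk (-0.44), with libraries apart, the subunit Relb (-0.74) and the adaptor Traf2 (-0.37). Without E7.1 or without E6.2 0 of these 3 were called. Chuk (adjusted p = 0.0634) and Gatad2b (adjusted p = 0.0696) did not pass the test with the offset for GC content and length, nor Hdac2 (adjusted p = 0.054), Chuk (adjusted p = 0.0607) and Traf2 (adjusted p = 0.108) without the filter on low counts. Traf2 also lost its call with the replicate block (adjusted p = 0.0623). With 1 library left out, 1 to 7 Foxp and Foxo, 1 to 11 Wnt and 0 to 7 NF-kB genes were called. Of 31 interferon-stimulated genes 2 were higher and 3 lower (16.1%, median 0.16). The higher ones were Ifi213 (0.97) and Epsti1 (0.66), and Ifi27 (-2.34) and Trim30a (-0.73) were lower, all with overlapping libraries. Without E7.1 1 of this list was called, with 1 library left out 1 to 8, and without the third libraries of E6.2 and E7.2 11.

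The estrogen response early set, which the study singled out from these libraries and which is therefore no independent evidence of a direction, had 15 of 121 tested genes higher and 7 lower (18.2%, median 0.10). The study reports the set as raised in the E7 and lowered in the E6 clones. That came from a gene set ranking of clones against parental cells, which is another measure and another comparison. Slc24a3, a potassium-dependent sodium and calcium exchanger, had 0 counts in all E6.2 libraries and E7 values of 9.21 to 44.7 CPM (median 11.2). Its means were 17.2 CPM in E6.1, 10.4 CPM in E7.1, 22.4 CPM in E7.2 and 15.6 CPM in parental cells. Its difference was 5.93 in the fit and -0.15 without E6.2. Fcmr (0.73), the IgM Fc receptor, and Ablim1 (1.15), an actin-binding LIM protein, were higher with overlap, and Myof with libraries apart. Without E7.1 5 members were called, without E6.2 11, with 1 library left out 9 to 47, and without the third libraries of E6.2 and E7.2 55.

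The forkhead core TGTTTAC, or its reverse complement GTAAACA, was looked for on both strands of the RefSeq promoters of GRCm38.p6, each from 250 bases before to 50 bases after a gene start. It was present in 304 of 12014 promoters of tested genes (2.53%, 9488 of 13904 genes matched). In genes with libraries apart it was present in 3 of 221 promoters of higher genes (1.36%, 172 of 220 genes matched) and in 6 of 195 of lower genes (3.08%, 157 of 207 genes matched). These are counts of letters in a short window and not of binding sites. Named genes were looked up only where they were called with libraries apart. Among those with a matched promoter, Ccnd3 was the one that held it.

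The called genes were spread over the chromosomes, with 9.66% (chromosome 14) to 16.2% (chromosome 19) of tested genes called. Runs of at least 5 called genes of the same direction, with at most 5 other tested genes between neighbours, numbered 13. The first of the longest was on chromosome 10 from 75060896 to 75895941, where 8 of 13 tested genes were higher and the median was 0.82. It holds Bcr (0.56), Snrpd3 (0.39), Ddt (1.26), Gstt3 (1.32), Gstt4 (1.89), Gstt2, Mif and Derl3. Gstt3, a theta-class glutathione transferase, was 90.8 to 122 CPM (median 117) against 29.2 to 71.1 CPM (median 43.9) (log2 fold change 1.32, SE 0.15, adjusted p = 0.000212), with no overlap. Members of the theta cluster resemble each other in sequence, so reads may be split between them. The second, also of 8 higher among 13 genes, lay on chromosome 9 from 113651744 to 114933987. There the E6.1 clone was lower than the parental mean for 13 of 13 genes, with a median of -0.89 on the log2 scale, while the other 3 clones had medians of -0.01 to 0.02. Gpd1l, at the end of that run, was 111 to 135 CPM (median 117) in the E7 and 45.6 to 91.9 CPM (median 64.8) in the E6 libraries (log2 fold change 0.94, SE 0.10, adjusted p = 0.000151), again with no overlap. On chromosome 5, 5 of 8 genes from 109886231 to 110129794 were lower, all with libraries apart, among them Zfp932 and Zfp605.

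Genes that the study lists as the closest matches to its guides were examined in the same fit. The study, which compared each clone with the parental cells, reports no altered transcript expression for them. For exon 6 these were Map1b and Ovgp1. Ovgp1, an oviduct glycoprotein, was 2.27 to 2.97 CPM (median 2.57) against 3.11 to 11.3 CPM (median 4.797) (log2 fold change -1.08, SE 0.19, adjusted p = 0.00487), with no overlap. Its means were 3.77 CPM in E6.1, 8.07 CPM in E6.2, 2.50 CPM in E7.1, 2.70 CPM in E7.2 and 4.38 CPM in parental cells. Only E6.2 was thus above the parental mean, and with 1 clone left out the adjusted p for Ovgp1 reached 0.0821. Map1b, a microtubule-associated protein, was 0 to 0.0298 CPM in the E7 clones, 0 to 0.0981 CPM in E6.1 and 0.66 to 5.90 CPM in E6.2, so its called difference (log2 fold change -4.48, SE 1.01, adjusted p = 0.0156) lay in 1 clone. The parental mean of Map1b was 0.671 CPM, above the E7 clones and E6.1. The study also names Tmem194, which is read here as both Nemp1 and Nemp2, former Tmem194 genes. The other matches were Rhpn2 (-0.03), Nemp1 (-0.08) and Nemp2 (-0.17), which did not pass the test (adjusted p = 0.946, 0.816 and 0.616), and Zfp804b, which had 0 counts in all 12 libraries. A change of base in these genes cannot be read from counts.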

How the data were processed

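RNA was sequenced as paired ends from 3 passages each of E6.1, E6.2, E7.1, E7.2 and A20 parental cells. Per the file headers and labels, the authors aligned read pairs with HISAT (version not given in the sources used here) to GRCm38 and counted them per gene with featureCounts 1.5.0, without strand and leaving out pairs that matched several places or genes. The deposited values are raw counts for 41388 genes, and 92 spike-ins had 0 counts in all libraries. Counting without strand and outside shared stretches can lower or blur genes that overlap others, among the named genes Foxp1, Nr1h3, Serp1, Tpi1, Ccnd3, Rpgrip1, Psmb9, Ptpn6, Tnfsf9, Kank4os and Taco1os. Symbols came from GENCODE by identifier (40254 genes matched).

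Counts were analysed in R 4.3.3 with edgeR 4.0.16: filterByExpr by line (13904 genes kept), TMM normalization, and glmQLFit and glmQLFTest with their defaults on the 15 libraries, with line as the one factor. The contrast was the mean of E7.1 and E7.2 minus the mean of E6.1 and E6.2, with Benjamini-Hochberg adjustment over all tested genes. The parental libraries had no weight in the contrast but entered the filter, the normalization and the estimate of spread. Intervals and floors from counts cover counting error only. The fit was tested on simulated data. Of 12 pairs of an E6 with an E7 library of the same replicate number, 5 correlated by over 0.1 in their deviations from the line means, and the labels tie the numbers to no shared day or batch, so they were not used as pairs.

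Named genes were Foxp1, of the called genes with libraries apart and at least 1 CPM in the higher group the 12 largest differences in each direction (gene models with provisional Gm or Rik names, pseudogenes and receptor segments passed over) and the 5 most abundant, up to 4 called members of each list by smallest p (or 1 uncalled), up to 5 genes of the longest run on a chromosome, and the genes matched to the guides. Other genes were named after their values were seen: the 6 called in all clone pairs, Gm14414, Abca1, H2-Aa, H2-Ab1, Ciita, Blnk and the further called list members. Some genes within these rules are not reported here. The comparison, the gene lists and the alternatives were chosen with earlier results of these data known. Alternatives were other size factors, no filter, DESeq2 1.42.0, the other legacy setting of the fit, the 12 clone libraries alone, a replicate block, clones as the unit, a 2-fold minimum, leaving out libraries or clones and, chosen after seeing the data, an offset for GC content and length.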

Additional observations from a re-analysis of the deposited data

Results flagged for a closer look

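Clones of the same exon differed from each other, at an adjusted p under 0.05 in edgeR's quasi-likelihood test, for several genes named above. E6.2 minus E6.1 on the log2 scale was -8.61 for Adgrl2, -4.28 for Kank4os, -2.97 for Klk4, -1.92 for Psrc1, -1.48 for Sh3pxd2a, -1.11 for Rhox5, 1.34 for Sept8 and 3.25 for Rhou. It was -1.27 for Irf4, -1.31 for Cd200, -1.48 for Il2rg, -1.65 for Ebi3, -1.18 for Itgal, -1.36 for Fcmr and 6.24 for Map1b. For Slc7a11 (-13.15) and Slc24a3 (-12.21), as for Adgrl2, E6.2 had 0 counts in every library, so the fitted size depends on the prior count. E7.2 minus E7.1 was -1.73 for Rhox5, 0.68 for Cd200, -3.28 for Il2rg, -1.68 for Trim30a and 1.40 for Daam1. For Rhox5, Cd200 and Il2rg both pairs of clones differed.

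Single libraries lay far from the other 5 of their exon by Dixon's test at the 95% level, which chance flags in about 1 in 20 groups. The second library of E6.1 was highest of the E6 libraries for Ptpn6 (105 CPM, next 72.4), Ablim1 (67.1, next 45.8) and Sh3pxd2a (5.07, next 2.53), and lowest for Traf2 (34.0, next 39.0). In each of these it lay toward the E7 libraries. The first library of E6.2 was highest for mt-Rnr2 (21444 CPM, next 1301), Rpgrip1 (10.5, next 3.72) and Miox (3.31, next 1.33). The third library of E6.2 was highest for Gatad2b (141 CPM, next 71.4) and S1pr1 (89.0, next 51.0) and lowest for Bach2 (45.9, next 99.4).

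Of the E7 libraries, the first of E7.1 was highest for Actb (1627 CPM, next 1151), Tmsb4x (1144, next 627), Tpi1 (354, next 245) and Tnfrsf13c (55.2, next 37.5) and lowest for Rhou (0.509, next 1.14). The third library of E7.2 was highest for mt-Rnr2 (2381 CPM, next 921), Cd79a (229, next 157), Itgb3 (90.6, next 49.2), S1pr1 (61.9, next 23.4) and Slc24a3 (44.7, next 11.5), and lowest for Nemp1 (38.2, next 82.4) and Cdkn2d (2.73, next 4.29). The first library of E7.2 was highest for Ifi27 (1.37 CPM, next 0.613).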

How the results depend on the processing

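Size factors of DESeq2, no filter, the other legacy setting, the 12 clone libraries alone, an offset for GC content and length (added after seeing the data) and that offset with the replicate block gave 1473 to 1802 called genes. Same-numbered libraries correlated by 0.0766 on average (-0.0863 to 0.426, all 3 pairs of E6.2 with E7.2 by 0.174 or more), and 6 of 12 correlated best with their own number. The replicate block gave 1402 called genes, 380 of them with libraries apart, and Foxp1 at -1.11 (adjusted p = 0.000348). Of the named genes it ended the calls of Wars and Traf2. The offset ended those of Serp1, Gatad2b and Chuk, and no filter those of Sdha, Hdac2, Chuk, Traf2 and Snrpd3. DESeq2's Wald test called 1386 higher and 1298 lower (2684 in all). Of the 1677 calls, 450 were at least 2-fold (224 higher, 226 lower), 97 of them with libraries apart, and of the list members called 57.

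With the clone as the unit 0 genes were higher and 1 lower, 1 in all, which is also the 1 whose clone sums were apart, 0 list members were called, and Foxp1 was -1.04 (adjusted p = 0.362). Leaving out 1 library gave 271 to 1869 higher, 197 to 1933 lower and 468 to 3802 called genes, 212 to 1494 with libraries apart and 61 to 288 list members, against 156. Without E6.1 the counts were 468 higher, 1013 called, 700 with libraries apart and 96 list members. Without E6.2 they were 386 higher, 305 lower, 691 called and 62 list members. Without E7.1 they were 114 higher, 21 lower, 135 called, 99 with libraries apart and 28 list members. Without E7.2, 1385 were higher and 1961 of all calls had libraries apart. Without the third libraries of E6.2 and E7.2 they were 2509 higher, 2369 lower, 4878 called, 2626 with libraries apart and 375 list members. The cause was not tested.

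Over all alternatives 18 values of named genes reversed. Slc7a11 was -0.19 with the clone as the unit. Without E6.2, Slc7a11 was -1.21, Slc24a3 -0.15, Itgal -0.029, Ebi3 -0.025 and mt-Rnr2 0.28, and without E7.2 Trim30a was 0.12. The rest were genes that had not passed the test. Rhpn2 was 0.023 with the clone as the unit, 0.0082 without E6.1 and 0.23 without E7.1, and Nemp1 was 0.11 without E6.1. With 1 library left out Rhpn2 was -0.16 to 0.14, Nemp1 -0.20 to 0.092, Nemp2 -0.30 to 0.052 and mt-Rnr2 -1.92 to 0.040. Another 496 values kept their direction and lost the call, and 2504 kept both. At these depths differences in genes near 0.1 CPM rest on a few counts.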

Other observations

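Some values belong in no comparison above. Gm14414 was the 1 gene called when libraries were summed by clone (log2 fold change -7.48, adjusted p = 0.0221 in edgeR's quasi-likelihood test over 13904 genes), but its libraries overlapped. In E6.1 they read 66.4, 84.9 and 0.1001 CPM, and in E6.2 0.236, 39.1 and 50.4 CPM, so that 1 library of each E6 clone lay near the E7 libraries, which read 0.0895 to 0.481 CPM. The parental libraries read 0.272, 0.881 and 0.175 CPM. Gm14414 was chosen after its values were seen, is 1 of a family of similar gene models, and its reads may be shared with them.

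Aldoart2, a retrotransposed copy of the glycolytic aldolase gene Aldoa, was among the genes called higher in all 4 pairs of clones, with a mean of 0.613 CPM in the E7 clones, 0 counts in E6.1 and a mean of at least 6.24-fold over the 3-count floor per library of E6.1. Counts of such a copy are uncertain.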
